A study of Mus musculus with 2 samples.

Results

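The 8 genes described here, Ttr, Folr1, Clic6, Aqp1, Foxj1, Lmx1a, Enpp2 and Kl, are known from the choroid plexus and from the roof plate and cortical hem, the dorsal midline tissue next to it. They were taken by symbol from the 42442 named genes of the deposited gene tables, and all 8 were matched. The tables come from RNA-seq of total RNA from the forebrain of healthy mouse embryos of strain B6NCrl, of mixed sex, taken on embryonic day 12.5. The study has 1 group of 2 biological replicates, each 1 library from pooled forebrains, 120 embryos in replicate 1 and 68 in replicate 2. No treatment or mutant was included, and the labels give both pools the same donor number. With 1 group there is no contrast between conditions. The questions are how abundant these genes were in forebrain, how their levels ranked, and how far the pools differed. With 1 library per pool no p-value is given, and a difference between the pools describes these libraries.

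The choroid plexus is a sheet of epithelial cells over vessels that projects into the ventricles and secretes cerebrospinal fluid. In the telencephalon it forms at the dorsal midline beside the cortical hem, a source of Wnt and BMP signals, and its epithelium becomes multiciliated as it matures. The members fall into roles along this course. Lmx1a encodes a homeodomain factor of the roof plate and hem, and Foxj1 a forkhead factor that drives genes of motile cilia. Ttr encodes transthyretin, a secreted carrier of thyroid hormone and of the retinol-binding protein. Folr1 encodes the folate receptor that carries folate across the epithelium, Aqp1 a water channel of its ventricular face, and Clic6 a member of the chloride intracellular channel family. Enpp2 encodes autotaxin, the secreted lysophospholipase D that makes lysophosphatidic acid, and Kl encodes klotho, the co-receptor for FGF23.

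Sequence distinguished the transcripts of Enpp2, which is spliced with 2 alternative coding exons that the transcript tables quantify separately. Both exons are shown from the GENCODE M21 transcripts on GRCm38, read on the minus strand of chromosome 15, because they divide the 4 Enpp2 transcripts into 3 groups. The first, at chr15:54877776-54877931, has 156 bases and 52 codons. The second, at chr15:54851348-54851422, has 75 bases, of which the leading 2 belong to a split codon. Capitals mark whole codons for lysine or arginine.
Enpp2 first alternative exon: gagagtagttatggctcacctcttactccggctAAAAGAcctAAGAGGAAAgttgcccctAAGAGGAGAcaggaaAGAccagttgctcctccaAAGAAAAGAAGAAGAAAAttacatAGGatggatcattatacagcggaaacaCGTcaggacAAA
Enpp2 second alternative exon: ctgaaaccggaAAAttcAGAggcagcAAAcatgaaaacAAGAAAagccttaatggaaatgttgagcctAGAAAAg
Of the 52 codons of the first exon 18, or 34.6%, were lysine or arginine codons, and of the 24 whole codons of the second exon 7, or 29.2%.

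The RefSeq promoter table for GRCm38.p6 matched 3 of the 8 members, Aqp1, Kl and Lmx1a. The 250 bases before each RefSeq start, which need not be the start of the GENCODE gene, are shown on the plus strand to set CpG content and motif matches beside levels that ranged from below 1 TPM to several TPM. The windows are chr6:55336049-55336298 for Aqp1, chr5:150952357-150952606 for Kl and chr1:167689308-167689557 for Lmx1a. The Lmx1a window lies before the start used by the transcript Lmx1a-201. Capitals mark a motif match.
Aqp1 promoter: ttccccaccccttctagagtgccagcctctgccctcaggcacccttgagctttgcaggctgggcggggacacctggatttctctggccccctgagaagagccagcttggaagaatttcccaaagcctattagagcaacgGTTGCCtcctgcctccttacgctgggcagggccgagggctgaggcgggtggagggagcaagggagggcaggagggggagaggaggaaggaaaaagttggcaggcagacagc
Kl promoter: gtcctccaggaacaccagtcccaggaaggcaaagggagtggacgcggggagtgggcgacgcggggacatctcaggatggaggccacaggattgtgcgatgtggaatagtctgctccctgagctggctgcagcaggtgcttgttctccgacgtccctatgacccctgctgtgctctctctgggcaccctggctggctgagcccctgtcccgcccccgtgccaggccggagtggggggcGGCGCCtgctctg
Lmx1a promoter: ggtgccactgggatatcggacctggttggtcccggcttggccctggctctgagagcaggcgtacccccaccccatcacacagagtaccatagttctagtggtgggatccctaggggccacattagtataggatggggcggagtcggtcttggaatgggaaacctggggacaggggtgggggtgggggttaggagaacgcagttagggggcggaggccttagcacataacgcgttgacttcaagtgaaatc
Of 6 motifs searched on both strands, GTTGCC, the RFX type, was found in the Aqp1 window, 111 bases before the start, and in 10.4% of all 32851 promoters of the table. GGCGCC, a type bound by SMAD proteins, was found in the Kl window, 13 bases before the start, and in 9.59% of all promoters. The forkhead type TGTTTAC (3.17% of all promoters), the Otx type TAATCC (6.25%), the homeodomain type TAATTA (4.84%) and TATAAA (12.4%) were in none of these 3 windows, and the Lmx1a window held no match to any of the 6. No matches overlapped. CpG dinucleotides numbered 5 in the Aqp1 window, 13 in the Kl window and 9 in the Lmx1a window, against a median of 6 over all promoters. A match is a string in the sequence and not a measured site.

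Expected counts, the estimated numbers of reads per gene, summed to 33711030 in replicate 1 and 34578499 in replicate 2. Spike-in RNA held 9.19% and 8.25% of the TPM (a relative level per transcript length, scaled to the same total in each library). Over the 15188 named genes with a mean TPM of 1 or more, the median log2(TPM + 1) ratio of replicate 1 over replicate 2 was -0.01, with quartiles of -0.12 and 0.08. The telencephalon markers Lhx2 (161 TPM in replicate 1, 185 TPM in replicate 2), Nr2e1 (85.8 and 85.5 TPM), Emx1 (58.9 and 73.5 TPM) and Emx2 (48.6 and 57.2 TPM) were far above 1 TPM. Of 8 hindbrain genes, Gbx2, which the thalamus also expresses, was the 1 above 1 TPM, at 23.2 and 22.4 TPM, and Hoxa2, Hoxb3 and En2 were listed at 0.

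Of the 8 members 7 reached 1 TPM in both pools, all except Kl, where 34.5% of all named genes and 60.0% of protein-coding genes did so. Their TPM spanned from 2.67 TPM for Aqp1 to 84.4 TPM for Ttr. By mean TPM the order was Ttr, Enpp2, Foxj1, Lmx1a, Folr1, Clic6, Aqp1 and Kl. The neighbours Lmx1a and Folr1, and Folr1 and Clic6, overlapped in the range of the replicates and in the deposited intervals. All other neighbours in the order were apart by both measures. These intervals are the bounds that the tables give around each posterior mean TPM, and the labels and tables do not state the level they cover. The member levels in replicate 1 summed to 84.1 TPM and those in replicate 2 to 133.0 TPM, of which Ttr held 51.0% and 63.3%.

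**Figure D1:**
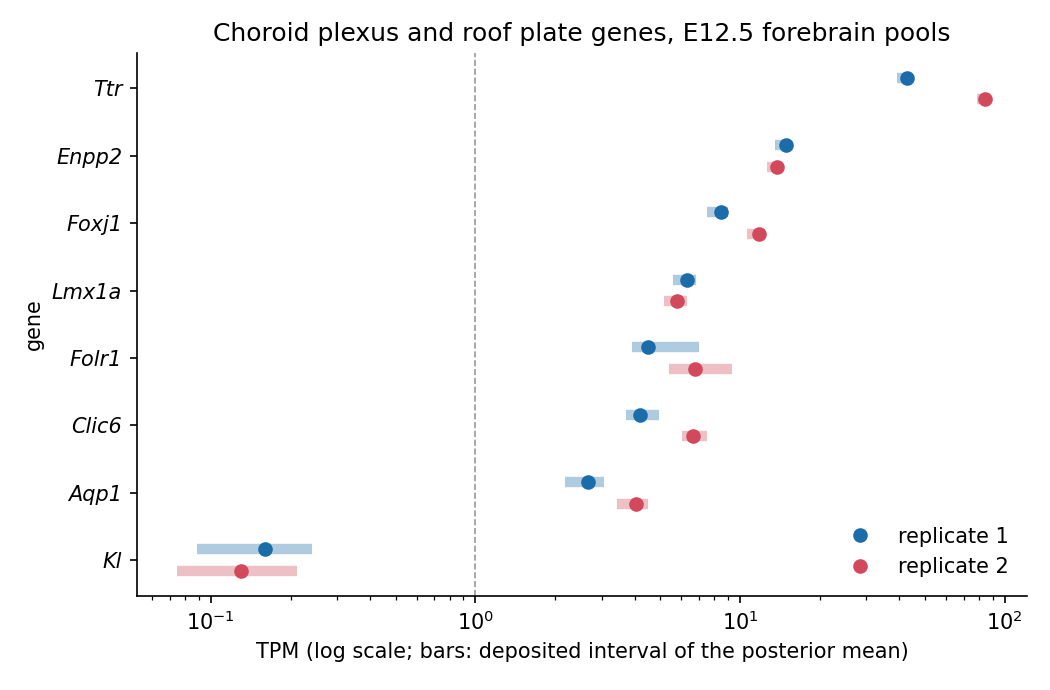
TPM of the 8 members on a log scale, 1 point per pool, with bars for the deposited interval of the posterior mean and a dashed line at 1 TPM. Ttr is highest in both pools, Kl alone lies below 1 TPM, and the pools of Ttr, Foxj1, Clic6 and Aqp1 have intervals that do not overlap.

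Lmx1a, the roof plate and hem regulator among the members, had 6.32 TPM in replicate 1 and 5.80 TPM in replicate 2 (6.06 ± 0.368 TPM, SD, n = 2), from 412 and 395 counts. Its level was slightly higher in replicate 1, and the deposited intervals of 5.60 to 6.79 TPM and 5.15 to 6.28 TPM overlapped. The ratio of counts after TMM scaling, which sets library sizes from the bulk of genes, was 1.09 (95% exact binomial interval 0.949 to 1.26). Such intervals cover counting error alone, because the reads carry no molecular identifiers and may copy one molecule. Lmx1a-201 carried 91.1% and 100% of the gene's TPM. Lmx1a-202, which has the same coding length of 1146 bases, had 35.1 counts in replicate 1 and 0 in replicate 2. The deposited interval of Lmx1a-202 was 0.0825 to 2.11 TPM in replicate 1 and reached 1.87 TPM in replicate 2, so the pools were not distinguishable in this transcript. Lmx1a (ENSMUSG00000026686) lies at chr1:167689237-167848741 on the plus strand.

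Foxj1, the regulator of motile cilium genes, had 8.47 TPM in replicate 1 and 11.8 TPM in replicate 2 (10.1 ± 2.35 TPM, SD, n = 2), from 431 and 625 counts. It was lower in replicate 1, where, in pooled tissue, fewer cells of a type and less RNA per cell cannot be told apart. Its intervals of 7.47 to 9.02 TPM and 10.6 to 12.4 TPM did not overlap. The TMM-scaled count ratio was 0.722 (95% interval 0.637 to 0.817), short of the 1.5-fold difference used here as a mark. Foxj1 stood above Lmx1a by 1.34 times in replicate 1 and 2.03 times in replicate 2. The gene (ENSMUSG00000034227) lies at chr11:116330704-116335399 on the minus strand and has 1 transcript in the tables.

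Ttr, the carrier of thyroid hormone and retinol-binding protein, had 42.9 TPM in replicate 1 and 84.4 TPM in replicate 2, from 969 and 1984 counts. The level was lower in replicate 1, and the intervals of 39.1 to 44.4 TPM and 78.6 to 85.8 TPM were far apart. The log2(TPM + 1) ratio was -0.96, the TMM-scaled count ratio 0.511 (95% interval 0.473 to 0.552), and 1 transcript carried all of the TPM. Among the 15188 genes at a mean of 1 TPM or more, ordered from the lowest ratio of replicate 1 over replicate 2, Ttr stood at place 150. Ttr was 6.79 times the level of Lmx1a in replicate 1 and 14.6 times in replicate 2, so the balance between the secreted carrier and the hem regulator was not the same in the pools. The transcript of Ttr (ENSMUSG00000061808) has 441 coding bases in 4 exons on the plus strand.

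Folr1, the folate receptor, had 4.49 TPM in replicate 1 and 6.73 TPM in replicate 2 (5.61 ± 1.58 TPM, SD, n = 2), from 57 and 89 counts. It was lower in replicate 1 by just under 1.5-fold, and the intervals of 3.89 to 6.98 TPM and 5.39 to 9.33 TPM overlapped. The TMM-scaled count ratio was 0.670, with a wide 95% interval of 0.472 to 0.945 at this depth. Folr1 has 17 transcripts in the tables, of which 6 were given reads. Transcripts of 331 to 404 bases held 9.99 and 14.8 of its counts but 40.9% and 42.5% of its TPM, so the level of Folr1 rests in good part on a few reads assigned to short transcripts. The longer Folr1-201 carried 45.8% and 48.2% from the TPM column, but 17.7% and 28.9% by the posterior mean. Folr1 (ENSMUSG00000001827, chr7:101858331-101870788, minus strand) lies within Anapc15, a gene on the other strand that shares no exon bases with it and had 80.0 and 83.3 TPM. The labels and tables do not state whether counting used strand.

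Clic6, of the chloride intracellular channel family, had 4.18 TPM in replicate 1 and 6.63 TPM in replicate 2 (5.40 ± 1.73 TPM, SD, n = 2), from 308 and 509 counts. It was lower in replicate 1 past 1.5-fold, with intervals apart at 3.71 to 4.92 TPM and 6.01 to 7.48 TPM. The TMM-scaled count ratio was 0.633 (95% interval 0.548 to 0.731). Clic6 kept nearly the same proportion to Folr1 in both pools, 0.931 times its level in replicate 1 and 0.985 times in replicate 2. Clic6 (ENSMUSG00000022949) lies at chr16:92485736-92541243 on the plus strand.

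Aqp1, the water channel, had 2.67 TPM in replicate 1 and 4.03 TPM in replicate 2 (3.35 ± 0.962 TPM, SD, n = 2), from 136 and 214 counts. It was lower in replicate 1, with a fold just past 1.5 and intervals apart at 2.18 to 3.05 TPM and 3.42 to 4.48 TPM. The TMM-scaled count ratio was 0.665 (95% interval 0.533 to 0.829). With TPM rescaled to the total of mouse genes, the Aqp1 difference was 1.49-fold and so under the mark. The single transcript with reads, Aqp1-201, has 807 coding bases, and the gene (ENSMUSG00000004655) lies at chr6:55336432-55348555 on the plus strand.

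Enpp2, the gene of autotaxin, had 14.9 TPM in replicate 1 and 13.8 TPM in replicate 2 (14.3 ± 0.82 TPM, SD, n = 2), from 904 and 861 counts. It was the second member in level, and the pools overlapped at 13.6 to 15.5 TPM and 12.6 to 14.4 TPM. The TMM-scaled count ratio was 1.10 (95% interval 1.00 to 1.21). Its gene (ENSMUSG00000022425) lies at chr15:54838901-54952892 on the minus strand and shares 345 exon bases with Gm26684 on the other strand, which was listed at 0 TPM in both pools.

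By transcript, Enpp2-201, which holds neither alternative exon, carried 89.1% of the gene's TPM in replicate 1 and 87.7% in replicate 2 (88.4 ± 1.00%, SD, n = 2). Transcripts with the first alternative exon, rich in lysine and arginine codons, carried 10.9% and 10.4% (10.7 ± 0.29%), from 102 and 89.1 counts. The second exon was carried by Enpp2-202, with 0 counts in replicate 1, where its deposited interval reached 0.738 TPM, and 13.5 counts, or 1.83% of TPM, in replicate 2. The transcript without either insert was thus the main one in both pools, and the insert of 52 codons was the more abundant of the alternatives. The first exon's share was steadier than that of its transcripts taken singly. Enpp2-204 had 4.04% in replicate 1 and 7.09% in replicate 2, and Enpp2-203 had 6.82% and 3.36%. Enpp2-203 is 3398 bases long in the tables and 2745 in M21, so its exons may not be those of M21 throughout.

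**Figure D2:**
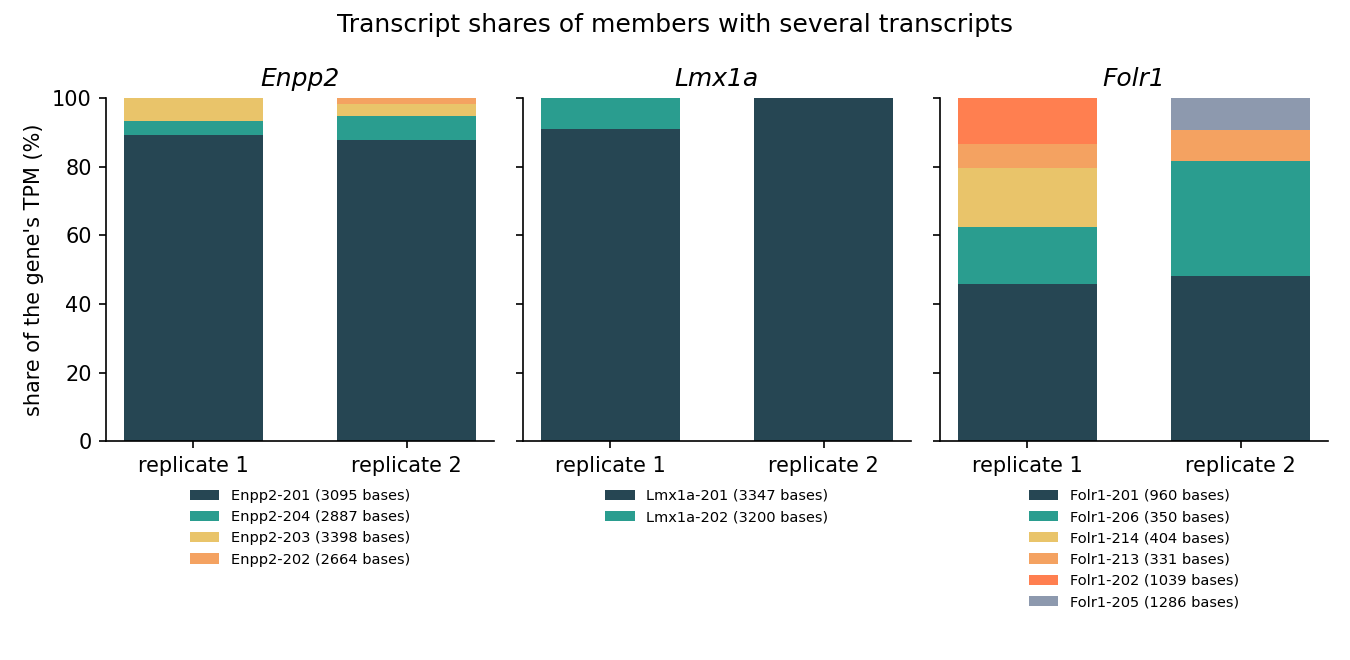
Share of the gene's TPM in percent for each transcript with reads of Enpp2, Lmx1a and Folr1, 1 stacked bar per pool, with transcript lengths in the legend. Enpp2-201 holds 89.1% and 87.7%, Lmx1a-201 holds 91.1% and 100%, and Folr1 is divided among short and long transcripts.

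Kl, the klotho co-receptor, had 0.16 TPM in replicate 1 and 0.13 TPM in replicate 2, from 16 and 14 counts. These levels were above the floor of 3 counts, which corresponds to 0.0300 and 0.0279 TPM, but under 1 TPM. The intervals of 0.0890 to 0.241 TPM and 0.0746 to 0.212 TPM overlapped, and at this depth the count ratio was known only to within 0.547 to 2.65. Kl (ENSMUSG00000058488) lies at chr5:150952607-150993817 on the plus strand.

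Of the 7 members with a mean TPM of 1 or more, 3 were over 1.5-fold lower in replicate 1, Ttr, Clic6 and Aqp1, where 5.01% of the 15188 genes were. None was over 1.5-fold higher, where 2.52% of all genes were. By the deposited intervals, 4 of the 7 were apart and lower in replicate 1, Foxj1 being the fourth, against 6.94% of all genes, and 0 were apart and higher, against 7.01%. In 5 of 7 the level was lower in replicate 1 by any amount, against 52.8% of all genes. Ttr, Folr1, Clic6, Aqp1 and Foxj1 lay on the lower side, with log2(TPM + 1) ratios from -0.96 to -0.43. Lmx1a and Enpp2 lay on the other side, at 0.11 each. The median over the 7 was -0.45, against -0.01 over all genes tested.

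**Figure D3:**
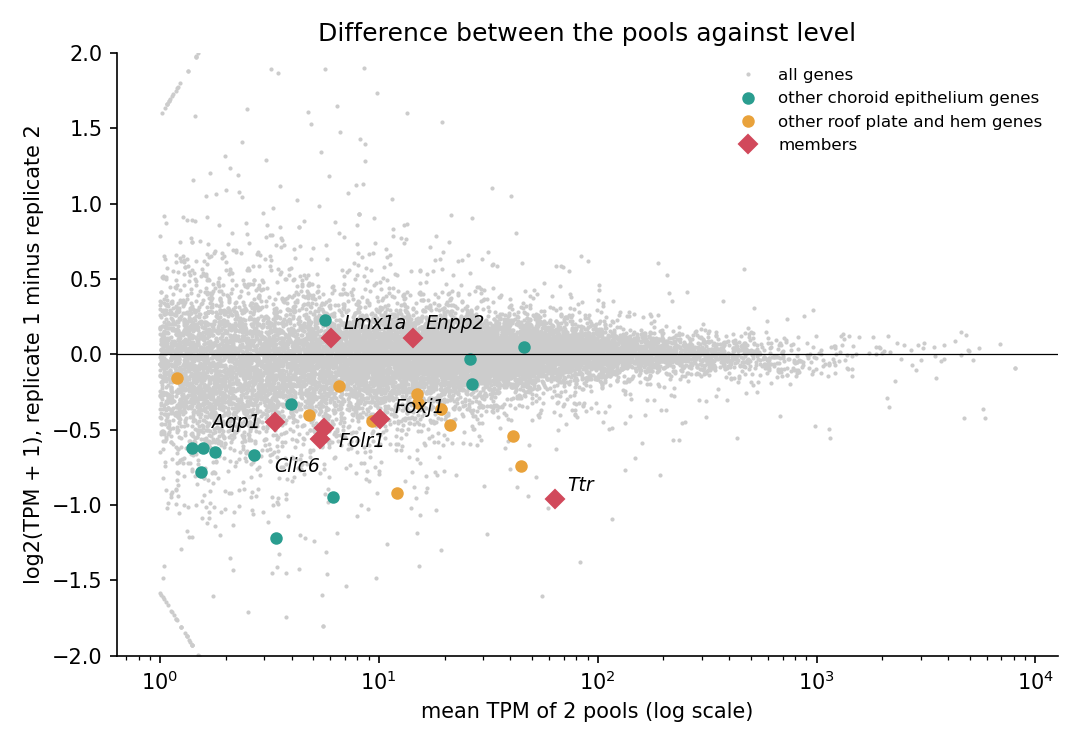
Log2(TPM + 1) in replicate 1 minus replicate 2 against mean TPM on a log scale, 1 point per gene for 15188 genes, of which 88 lie outside the drawn range of -2 to 2. Among the named members Ttr lies lowest at -0.96, Folr1, Clic6, Aqp1 and Foxj1 lie between -0.56 and -0.43, and Lmx1a and Enpp2 lie at 0.11.

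The genes nearest to Ttr in the ratio between the pools were sought among 8930 protein-coding genes at a mean of 10 TPM or more, over 2 libraries only. On the log2 TPM scale Ttr had a ratio of -0.98, and 6 of these genes had a lower one. The nearest was Fgf17, an FGF of the rostral midline, with 11.1 TPM in replicate 1 and 21.9 TPM in replicate 2. Next were Mprip, which encodes a myosin phosphatase-interacting protein, with 32.7 and 63.7 TPM, and Msx2, a homeodomain factor of the dorsal midline, with 8.07 and 16.2 TPM. Gna12, a G protein subunit, had 9.71 and 19.8 TPM, and the linker histone gene H1fx had 39.0 and 80.0 TPM. A ratio over 2 libraries is 1 number per gene, so this likeness is weak.

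A wider list of 20 other genes of choroid epithelium had a lower median level than the members. Of the 20, 10 reached 1 TPM in both pools, where 60.0% of protein-coding genes did so. The median was 1.56 TPM, against 5.84 TPM for the 8 members. The 3 highest were Otx2, a homeodomain factor of the choroid plexus and of other forebrain regions, at 46.8 TPM (replicate 1) and 45.1 TPM (replicate 2), Cab39l at 25.7 and 26.2 TPM, and Wfdc2 at 24.7 and 28.5 TPM. These 3 differed little between the pools. Of the 12 listed genes at a mean of 1 TPM or more, 7 were over 1.5-fold lower in replicate 1 and 0 higher. Over all 15188 genes at that mean the shares were 5.01% and 2.52%. The median log2 ratio of the 12 was -0.62, and 4 had intervals apart and lower in replicate 1, against 6.94% of all genes. Genes besides the 3 highest of a list are named here and below after their values were seen. The 7 were the channel gene Trpm3 (3.91 TPM in replicate 1, 8.49 TPM in replicate 2), the potassium channel genes Kcnj13 (1.63 and 5.12 TPM) and Kcne2 (1.84 and 3.53 TPM), the tight junction gene Cldn1 (1.18 and 2.41 TPM), the serotonin receptor gene Htr2c (1.03 and 2.12 TPM), 1500015O10Rik and Calml4. Deposited intervals were apart for Trpm3, Kcne2, Cldn1 and 1500015O10Rik and overlapped for Kcnj13, Htr2c and Calml4. The list sum was 121 TPM in replicate 1 and 139 TPM in replicate 2, most of it from the 3 highest genes. By sum the list was thus above the 8 members, which had 84.1 and 133.0 TPM.

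Among 15 further genes of the roof plate and cortical hem 11 reached 1 TPM in both pools, where 60.0% of protein-coding genes did so. All 11 were lower in replicate 1, 8 of them with intervals apart. Of all genes at a mean of 1 TPM or more, 52.8% were lower in replicate 1, and 6.94% were lower with intervals apart. Msx1, a homeodomain factor of the dorsal midline, had 33.1 TPM in replicate 1 and 56.0 TPM in replicate 2. Rspo3, a secreted enhancer of Wnt signals, had 33.2 and 48.9 TPM, and the hem Wnt gene Wnt8b had 17.6 and 24.7 TPM. Msx1 and Msx2 were the 2 of 11 past 1.5-fold, lower in replicate 1, where 5.01% of all genes were. The median log2 ratio was -0.40, and the list sum was 156 TPM in replicate 1 and 228 TPM in replicate 2. Lmx1a, the member expressed in the same domain, was slightly higher in replicate 1, with intervals that overlapped. The closely related Lmx1b, also named after its values were seen, was below 1 TPM, at 0.75 and 0.69 TPM.

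Foxj1 was set beside the genes of multiciliated cells. Of 10 regulators of multiciliogenesis 7 reached 1 TPM in both pools, where 60.0% of protein-coding genes did so. The highest were Rfx3, a factor of cilium genes, at 29.8 TPM (replicate 1) and 28.1 TPM (replicate 2), Trp73 at 7.27 and 7.52 TPM, and Myb at 5.93 and 6.08 TPM. These 3 differed little between the pools. The 3 regulators over 1.5-fold lower in replicate 1, with 0 higher, were Mcidas (1.76 and 3.00 TPM), Ccno (3.38 and 5.31 TPM) and Deup1 (1.02 and 2.47 TPM). By the same mark 5.01% of all genes at a mean of 1 TPM or more were lower and 2.52% higher. The deposited intervals were apart for Mcidas and Ccno and overlapped for Deup1. The median log2 ratio of the 7 was -0.04. Of 21 motile cilium genes 10 reached 1 TPM in both pools, beside the same 60.0%, and Sntn and Tmem212 were listed at 0. The highest were Ccdc40, which sets the axoneme's regular spacing, at 24.9 and 25.3 TPM, the radial spoke gene Rsph9 at 13.1 and 12.3 TPM, and the dynein light chain gene Dynlrb2 at 3.62 and 7.80 TPM. Dynlrb2 and Pifo were past 1.5-fold, lower in replicate 1, with 0 higher, and the median log2 ratio was -0.25 over 11 genes. Dnah5, a dynein heavy chain gene named after its value was seen, had 0.13 TPM in both pools, far below Foxj1.

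Genes that work with 4 of the members were set beside them. The list counts at 1 TPM stand beside a share of 60.0% of protein-coding genes at that level in both pools. For Ttr, 6 of 9 genes of thyroid hormone and retinol handling reached 1 TPM, among them the receptor gene Thra at 43.9 TPM (replicate 1) and 49.4 TPM (replicate 2) and the amino acid and thyroid hormone transporter gene Slc7a5 at 30.9 and 28.7 TPM. For Folr1, the other folate carriers Slc19a1 (27.9 and 24.9 TPM) and Slc46a1 (15.8 and 15.2 TPM) stood above it per length. The endocytic receptor gene Lrp2 had 1.17 and 1.45 TPM. The paralog Folr2 was lower in replicate 1 (0.56 TPM, against 1.56 TPM in replicate 2), with intervals apart, and Izumo1r was listed at 0. For Enpp2, 6 of 9 genes of lysophosphatidic acid signalling passed 1 TPM, with the phosphatase genes Plpp3 at 74.3 and 70.1 TPM and Plpp1 at 17.4 and 18.6 TPM and the receptor gene Lpar1 at 37.7 and 41.5 TPM. For Kl, a list of 9 genes of the klotho family and endocrine FGF signalling had 4 above 1 TPM, the highest being the receptor genes Fgfr3 (67.8 and 90.0 TPM) and Fgfr2 (66.4 and 74.5 TPM) and the ligand gene Fgf15 (70.0 and 53.4 TPM), which signals through the related co-receptor beta-klotho. The gene of the Kl ligand, Fgf23, had 0.03 and 0.11 TPM, and Klb, which encodes beta-klotho, had 0.03 and 0.04 TPM. Among genes with a mean TPM of 1 or more, none in the lists for Ttr, Enpp2 and Kl was past 1.5-fold between the pools. Of all such genes 5.01% were past it and lower in replicate 1, and 2.52% past it and higher.

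Within their families the members were not always the most abundant. Aqp1 and Aqp11 (3.45 TPM in replicate 1 and 4.29 TPM in replicate 2) were close in level, and of the 11 other aquaporin genes Aqp11 and Aqp3 (2.00 and 1.09 TPM) reached 1 TPM, Aqp3 being over 1.5-fold higher in replicate 1. Aqp9, at 0.06 and 0.76 TPM, was the third by mean level. Clic6 was far below Clic4 (181 and 169 TPM) and Clic1 (125 and 128 TPM) and above Clic3 (1.66 and 0.93 TPM) and Clic5 (0.16 and 0.36 TPM). Enpp2 was below Enpp5 (20.9 and 21.4 TPM) and above Enpp4 (3.97 and 3.56 TPM) and Enpp3 (2.32 and 2.61 TPM). Foxj1 lay between Foxj3 (26.0 and 26.6 TPM) and Foxj2 (4.80 and 4.68 TPM). The Clic, Enpp and Foxj orders held in both pools.

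Other tissues that express members were examined by their markers. As 60.0% of protein-coding genes reached 1 TPM in both pools, a count near that share does not set a list apart. Ttr is also a gene of liver and visceral endoderm. Of 10 genes of those tissues Apoa2 was above 1 TPM in both pools (1.20 TPM in replicate 1, 2.12 TPM in replicate 2), Apoa1 had 1.33 and 0.92 TPM and Amn 0.28 and 0.30 TPM. Alb, Fgg and Serpina1a were listed at 0, and the list summed to 3.24 TPM in replicate 1 and 3.65 TPM in replicate 2. Enpp2 is later a gene of oligodendrocytes. Of 6 genes of that lineage 5 reached 1 TPM, Olig2 (23.9 and 17.8 TPM), Cnp (19.2 and 16.0 TPM) and Mbp (14.7 and 11.0 TPM) being the highest, and the list summed to 67.8 and 55.3 TPM. Lmx1a is also a gene of the midbrain floor plate. Of 9 genes of that region 5 reached 1 TPM, Nr4a2 (15.3 and 15.0 TPM), Ntn1 (14.8 and 11.6 TPM) and Th (14.7 and 11.4 TPM) being the highest, and the sum was 62.5 TPM in replicate 1 and 53.3 TPM in replicate 2. Foxa1, Foxa2, En1 and Pitx3 of that list, named with Shh after their values were seen, were below 1 TPM. Of these, Foxa1 (0.93 and 0.62 TPM) was higher in replicate 1. Foxa2 (0.23 and 0.55 TPM), En1 (0.73 and 0.98 TPM) and Pitx3 (0 and 0.20 TPM) were lower there. Deposited intervals overlapped for each of them. All 5 genes that reached 1 TPM were higher in replicate 1. Intervals were apart for 4 of the 5, among them Shh (3.54 and 2.36 TPM). Of the mammillary and subthalamic genes, another domain of Lmx1a, Nkx2-1 (54.3 and 30.7 TPM) was past 1.5-fold and higher in replicate 1, and Barhl2 (6.27 and 5.12 TPM), Barhl1 (4.68 and 3.65 TPM) and Foxb1 (2.99 and 2.32 TPM) were higher there by less. The part of these tissues in the levels of Ttr, Enpp2 and Lmx1a was not tested.

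Several lists of other cell types moved between the pools along with the members. For comparison, 52.8% of all genes at a mean of 1 TPM or more were lower in replicate 1, and 6.94% were lower with intervals apart. All 6 erythroid genes were lower in replicate 1, 5 with intervals apart, with a median log2 ratio of -0.46 and a sum of 6340 TPM, against 8620 TPM in replicate 2. All 6 meninges and mesenchyme genes were lower in replicate 1 with intervals apart, with a median of -0.37 and a sum of 579 TPM, against 691 TPM. Endothelial genes, by contrast, had a median of 0.02, with 0 of 6 apart and sums of 112 and 117 TPM. Aqp1 is also a gene of red cells and vessels, and the part of erythroid and meningeal tissue in the differences of Aqp1 or the other members was not tested. Of 6 genes of pigment epithelium and eye, a tissue that expresses Ttr and Enpp2, Rlbp1 and Dct were above 1 TPM in both pools. Rlbp1 (13.8 TPM in replicate 1, 11.6 TPM in replicate 2) and Dct (7.55 and 6.70 TPM) were higher in replicate 1. Pmel (0.71 and 3.61 TPM), Mitf (0.62 and 0.85 TPM) and Tyrp1 (0.12 and 0.77 TPM) were lower in replicate 1. Deposited intervals were apart for Pmel and overlapped for Mitf and Tyrp1, and Rpe65 was listed at 0. Whether eye tissue took part in the difference of Ttr was not tested.

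**Figure D4:**
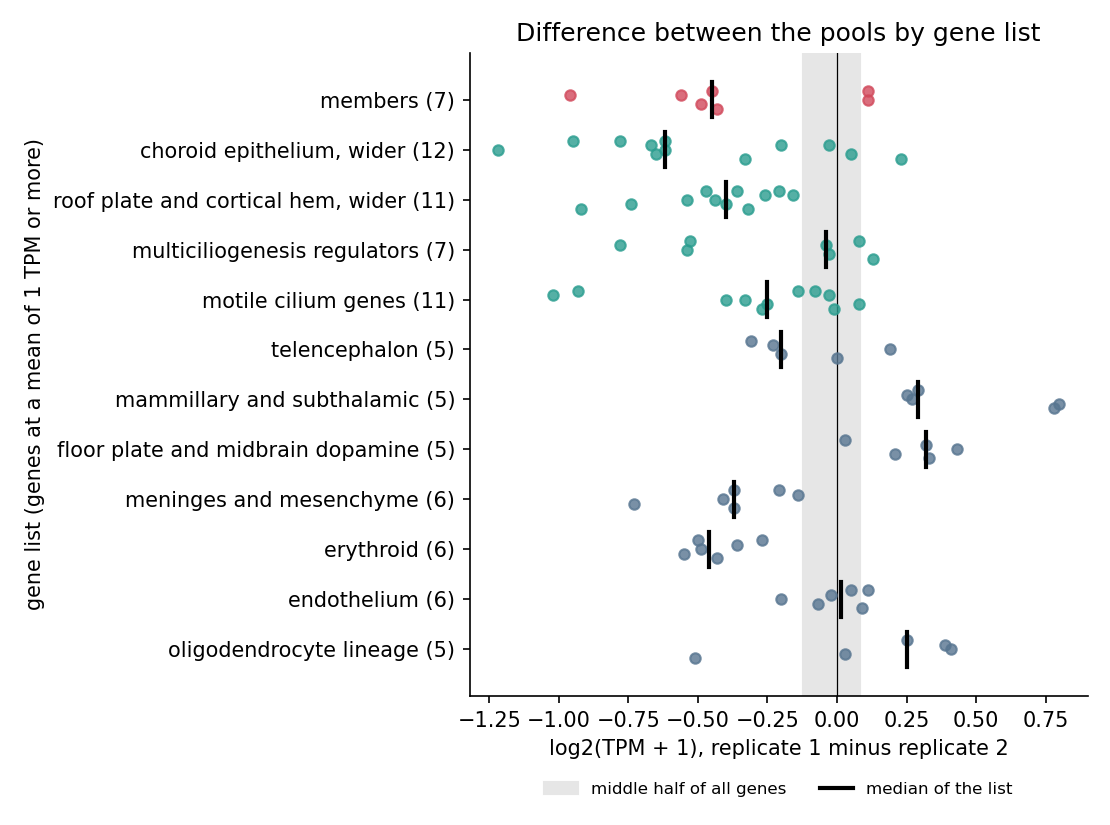
Log2(TPM + 1) in replicate 1 minus replicate 2 for the genes at a mean of 1 TPM or more of each list, 1 point per gene, with a black bar at the list median and a grey band from -0.12 to 0.08, the quartiles of all genes. The medians of the members (-0.45), the wider choroid list (-0.62), the roof plate and hem list (-0.40), motile cilium (-0.25), telencephalon (-0.20), meninges (-0.37) and erythroid genes (-0.46) lie left of the band. Those of the mammillary and subthalamic (0.29), floor plate (0.32) and oligodendrocyte (0.25) lists lie right of it, and those of the multiciliogenesis (-0.04) and endothelium (0.02) lists within it.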

How the data were processed

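The labels state that RNA was extracted with the mirVana kit, that longer RNA was selected and that 10 ng entered each library with ERCC spike-ins, and a SMARTer Ultra Low manual is listed. Per the text deposited with the tables, values were derived from transcriptome alignments of each replicate alone, on mm10 with GENCODE M4. Neither labels nor tables name an aligner, a quantifier or a strand setting. The authors' tables give expected counts, estimated reads per feature that need not be whole. They deposited TPM relative to all features, spike-ins included, and posterior mean TPM with a TPM interval, whose lower and upper signal bounds, deposited by the authors, belong to the posterior mean. For transcripts, the authors' tables add the percent of gene TPM that each one held. By its title the series has been superseded by another deposit, which was not analysed here.

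Symbols, positions and transcripts came from GENCODE M21 by gene identifier without version, on the same build, and promoters from RefSeq. Members and lists were chosen with earlier results of these data known. By rule the named genes are the members, the 3 highest of each list (any gene in lists of at most 6), the 5 nearest to Ttr in ratio, and genes at 0 in lists of other tissues. Other genes named in the text were chosen after their values were seen, and some genes this rule names are left out. Detection was set at 1 TPM and a difference marked at 1.5-fold in TPM among genes at a mean of 1 TPM or more. Ratios used log2(TPM + 1), which understates changes of low genes. Expected counts were scaled by TMM (edgeR 4.0.16), with DESeq2 1.42.0 size factors as an alternative, in R 4.3.3, and count ratios carry exact binomial intervals. Other steps used Python 3.11.15, pandas 2.3.3, numpy 2.4.6, scipy 1.17.1 and matplotlib 3.10.9. The marking of differences was tried on simulated counts that held counting error alone, so this trial does not cover variation between pools or libraries. No significance test was made, as there is 1 group of 2 libraries. The labels call the pools biological replicates, and their spread is the only error available.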

Additional observations from a re-analysis of the deposited data

How the results depend on the processing

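Of the 8 members 7 reached 1 TPM in both pools and 4 reached 5 TPM. At 0.5 TPM the count stayed at 7, as Kl was below that level too. At 5 TPM the list counts were 4 for the wider choroid epithelium list, 3 for the multiciliogenesis regulators and 3 for the motile cilium genes. At 2-fold in place of 1.5-fold 0 members were marked as lower in replicate 1, Ttr having 1.97-fold. With TPM rescaled to mouse genes 2 members passed 1.5-fold in place of 3, Aqp1 having 1.49-fold, and the other units and the absence of a filter gave 3. All 40 alternative log2 ratios of the 8 members kept their direction. A change of pseudocount cannot alter it, and the other units rest on the same reads, so this does not show how firm the directions are. For Kl, whose count ratio had an interval of 0.547 to 2.65, the direction was not resolved. Rescaling moved the level of Lmx1a to 6.64 TPM and of Enpp2 to 15.7 TPM, past the spread between the pools. By posterior mean, transcript shares were 85.4% for Enpp2-201, 84.9% for Lmx1a-201 and 23.3% for Folr1-201. Leaving out either replicate left 7 members at 1 TPM, a count that could not fall because the main one requires both pools. No ratio between the pools can then be formed. Depth limits Kl and Folr1 most, and with 1 library per pool a difference between the pools cannot be told apart from one between libraries.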
